A study of Rattus norvegicus with 4 samples.

Results

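MiR-126-3p and miR-126-5p are the 2 arms cut from the miR-126 hairpin, and their reads, ends and balance were followed through an angiotensin II (Ang II) time course in cultured smooth muscle. A read was given to an arm when its first 18 nt were identical to those of the rat mature sequence in RefSeq, without use of any measured value. These 2 arms stand among 403 mature miRNA starts with reads in at least 1 library. The cells were vascular smooth muscle cells from the aorta of Sprague-Dawley rats, a primary muscle culture. They were grown in M199 with 10% fetal bovine serum and all were depleted of serum for 48 h. The control library is from cells that then received no Ang II, and the other 3 libraries are from cells given 100 nM Ang II, a pressor peptide hormone, for 1 h, 3 h or 24 h. Each group is 1 library, so no value has a replicate check, intervals (95%) cover counting error alone, and no test between conditions was made. No untreated library was set beside each time, so effects of the hormone cannot be told apart from those of time. The number of animals behind a culture is not given in the labels.

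MiR-126 is carried by the gene Egfl7, which encodes a protein secreted by endothelial cells, and is best known as a miRNA of endothelium and of blood cells of the platelet lineage. In mouse and human endothelial cells the 3p arm represses Spred1 and Pik3r2, inhibitors of signalling by vascular growth factors, and the 5p arm represses Dlk1, a non-canonical ligand of Notch receptors. In a hairpin of this kind the enzyme Drosha makes the 5′ end of the 5p arm and the 3′ end of the 3p arm, and Dicer makes the ends next to the loop. Bases 2 to 8 of a miRNA, the seed, lead its pairing with targets, so a shift of the 5′ end gives another seed.

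The mature arms and the hairpin are shown first because all reads below are defined against them. RefSeq (GRCr8) places the 3p arm at chr3:29813219-29813240 and the 5p arm at chr3:29813182-29813202, both on the plus strand. The hairpin, listed as gene Mir126b with the synonyms Mir126 and Mir126a, spans chr3:29813174-29813246 and lies inside the span of Egfl7 (chr3:29802481-29814966, plus strand). Capitals mark the seeds in the mature sequences and the 5p and 3p arms in the hairpin, whose letters are the complement of the longer hairpin listed on the opposite strand.
miR-126-3p: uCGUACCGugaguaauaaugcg
miR-126-5p: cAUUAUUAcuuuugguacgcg
miR-126 hairpin: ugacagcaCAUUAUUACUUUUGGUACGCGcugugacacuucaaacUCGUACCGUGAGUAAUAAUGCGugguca
Neither seed is shared with any other of the 693 rat mature miRNA names in the table, 0 for the 3p arm and 0 for the 5p arm.

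MiR-126-3p was read 1592 times in the library of untreated cells, 1326 times after 1 h, 1650 times after 3 h and 1400 times after 24 h of Ang II. Scaled to the 14395539, 13119417, 14370167 and 14534892 reads of the 4 libraries that name a sequence, this was 111 reads per 1000000 (RPM; 105 to 116) in untreated cells, 101 RPM (95.7 to 107) after 1 h, 115 RPM (109 to 120.5) after 3 h and 96.3 RPM (91.3 to 102) after 24 h. The 3p arm was thus highest at 3 h and lowest at 24 h, and the intervals of neighbouring values in that order overlap. Those further apart do not: 3 h lies above 1 h and 24 h, and the control lies above 24 h. It ranked 84 among 357 miRNA starts with reads in untreated cells, 85 of 355 after 1 h, 82 of 350 after 3 h and 82 of 349 after 24 h, a place that hardly moved.

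MiR-126-5p was far rarer, with 138 reads in untreated cells, 160 after 1 h, 153 after 3 h and 124 after 24 h. Its level was 9.59 RPM (8.05 to 11.3) in untreated cells, 12.2 RPM (10.4 to 14.2) after 1 h, 10.6 RPM (9.03 to 12.5) after 3 h and 8.53 RPM (7.10 to 10.2) after 24 h. The highest value was at 1 h and the lowest at 24 h. All neighbouring intervals overlap, while those of 1 h and 24 h do not.

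**Figure D1:**
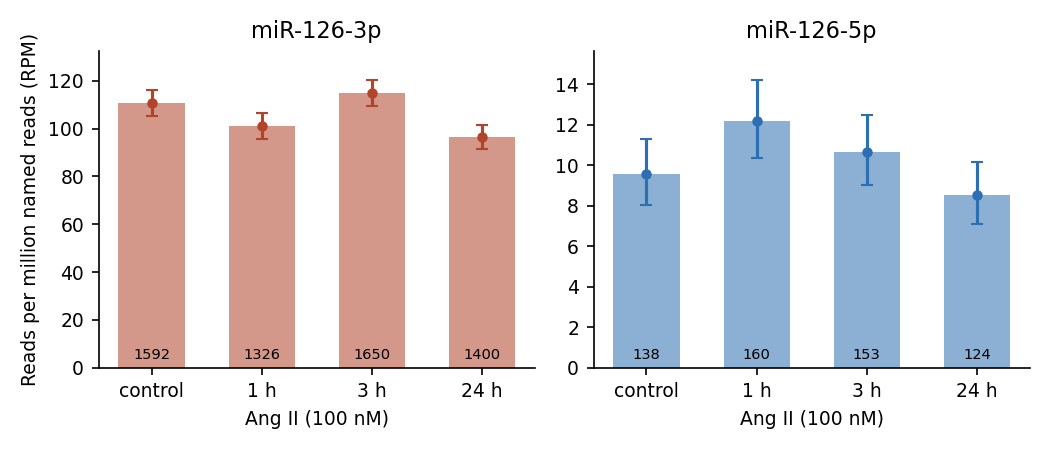
Level of miR-126-3p (left) and miR-126-5p (right) in each library, in RPM, with exact Poisson 95% intervals as bars and the raw reads printed at the foot of each column. The 3p arm lies between 96.3 and 115 RPM and the 5p arm between 8.53 and 12.2 RPM.

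Neither arm passed a 1.5-fold difference from the control at any time (0 of 2 at 1 h, 3 h and 24 h), taken on RPM + 1 with at least 100 reads in the higher library of the pair. At that limit 2.38% of the 168 miRNA starts tested at 1 h were higher and 2.38% lower, 4.12% of 170 were higher and 4.12% lower at 3 h, and 5.23% of 172 were higher and 16.9% lower at 24 h. At 1 h the 3p arm stood at 0.914 times the control (0.849 to 0.984), at 3 h at 1.04 times (0.969 to 1.11) and at 24 h at 0.871 times (0.810 to 0.936). The slightly lower level at 24 h lay close to the median of all starts tested, with a log2 ratio of -0.20 against a median of -0.25. With TMM or median-of-ratios factors, which centre that median near 0, the same ratio was 0.061 or 0.046, on the other side of the control. At 3 h the log2 ratio was 0.05. It turned to -0.066 when scaled to miRNA reads and to -0.029 when the listed sequence alone was counted. At 1 h it was -0.13, beside a median of -0.10 for all starts tested. Among the Ang II libraries, the 3p arm at 24 h stood at 0.839 times its level at 3 h (0.781 to 0.901). Its log2 ratio there was -0.25, beside a median of -0.19. For 3 h over 1 h it stood at 1.14 times (1.06 to 1.22), with 0.18 beside a median of 0.04.

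The 5p arm stood at 1.27 times the control at 1 h (1.01 to 1.61), an interval that barely leaves 1 out. At 3 h it was at 1.11 times (0.877 to 1.41) and at 24 h at 0.890 times (0.693 to 1.14). Its log2 ratios on RPM + 1 were 0.32, 0.14 and -0.15, and 15 of the 168 starts tested at 1 h had a higher one. The value at 24 h changed side with TMM factors (0.08) and median-of-ratios factors (0.07), and the value at 3 h did so when the listed sequence alone was counted (-0.10). Between the Ang II libraries, the widest step of the 5p arm was 24 h over 1 h, at 0.700 times (0.549 to 0.890). The 3 ratios to the control share its single library.

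**Figure D2:**
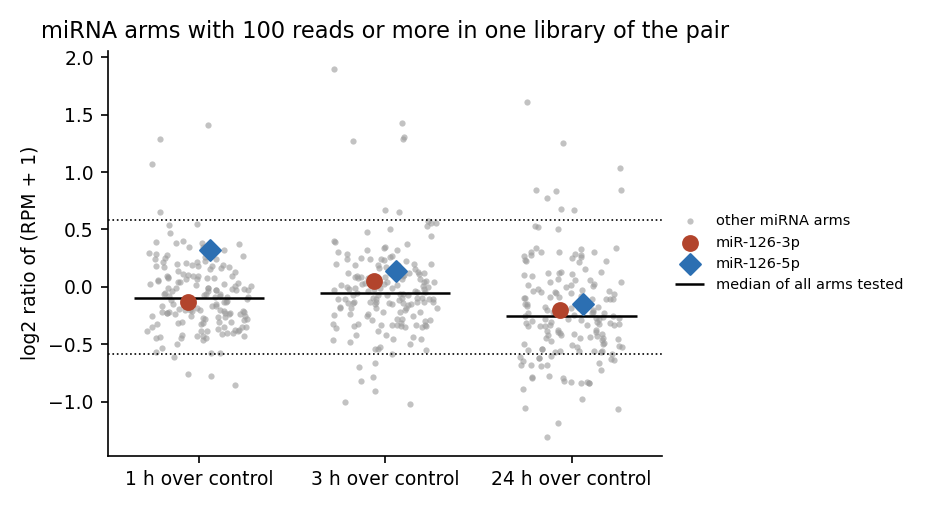
Log2 ratio of (RPM + 1) of each Ang II library over the control for every miRNA start with 100 reads or more in 1 library of the pair (grey), with miR-126-3p as a red circle and miR-126-5p as a blue diamond. Horizontal lines mark the medians (-0.10, -0.06 and -0.25) and dotted lines the 1.5-fold limit, which neither arm crosses.

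The balance of the 2 arms compares reads within a library and needs no scaling. MiR-126-5p made up 7.98% of the reads of both arms in untreated cells (6.74 to 9.36), 10.8% after 1 h (9.24 to 12.5), 8.49% after 3 h (7.24 to 9.87) and 8.14% after 24 h (6.81 to 9.62), exact binomial intervals. The 1 h library stands somewhat above the other 3, with 8.29 reads of the 3p arm for each read of the 5p arm at 1 h, against 11.5 in the control. Set against the control, the ratio of 5p to 3p reads was 1.39 times as high at 1 h (1.09 to 1.78), 1.07 times at 3 h (0.835 to 1.37) and 1.02 times at 24 h (0.787 to 1.33), with none past 1.5-fold. Among 51 hairpins with at least 100 reads on each arm, 13.7% were 1.5-fold higher in this ratio and 5.88% lower at 1 h, 17.6% higher and 5.88% lower at 3 h, and 7.84% higher and 11.8% lower at 24 h. Over all 4 libraries the 5p arm held 8.79% (8.11 to 9.50), against a median of 5.08% for the minor arm of the 51 hairpins, and 32 of them had a lower share. In 19 of the 51, miR-126 included, the minor arm was the 5p arm.

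Within the 3p arm, most reads were the listed sequence. The listed 22-nt form had 1140 reads in untreated cells, 919 after 1 h, 1115 after 3 h and 990 after 24 h, which is 71.6% (69.3 to 73.8), 69.3% (66.7 to 71.8), 67.6% (65.3 to 69.8) and 70.7% (68.3 to 73.1) of the arm. A form 1 nt shorter at the 3′ end followed with 346, 324, 439 and 325 reads. The 5 most read forms are shown because they hold nearly all reads of the arm. Capitals mark the seed, the letters are those of the deposited sequences, and the order is by total reads.
miR-126-3p, 4164 reads: tCGTACCGtgagtaataatgcg
miR-126-3p, 1434 reads: tCGTACCGtgagtaataatgc
miR-126-3p, 107 reads: tCGTACCGtgagtaataatgcga
miR-126-3p, 70 reads: tCGTACCGtgagtaataatg
miR-126-3p, 69 reads: tCGTACCGtgagtaataattcg
The third of these carries an A that the hairpin does not have at that place. The last differs from the listed sequence by G20T, counted from 1 at the 5′ end, and forms with that change held 28, 16, 20 and 14 reads in the control, 1 h, 3 h and 24 h libraries. The other forms among the 32 of this arm each had fewer reads.

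Reads that end on bases of the hairpin made up 95.5% of the 3p arm over the 4 libraries. Reads with added 3′ bases that the hairpin lacks made up 2.88% of the arm (2.47 to 3.34), against a median of 6.97% over 114 miRNA starts with at least 1000 reads and a listed hairpin, and 99 of these had more. Whether such bases were on the RNA or were left by read trimming, which is not described, was not tested. A single added A accounted for 2.03% of the 3p reads (median of the 114, 2.67%), and a single added T, a U in the RNA, for 0.586% (median 1.32%). The share with an added A was 2.01% in untreated cells, 2.79% after 1 h, 1.33% after 3 h and 2.14% after 24 h, on 32, 37, 22 and 30 reads. Its interval at 1 h (1.97 to 3.83) and at 3 h (0.837 to 2.01) meet only at their edges.

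The 5′ end of miR-126-3p varied much more than that of miR-126-5p. Reads that begin up to 2 nt before or after the listed start, and match the hairpin for 18 nt from there, were added to the count for this comparison. Of the 3p reads so counted, 24.2% had a shifted start in untreated cells (508 of 2100; 22.4 to 26.1), 23.9% after 1 h (416 of 1742), 23.6% after 3 h (511 of 2161) and 23.5% after 24 h (430 of 1830). These 4 shares lie within each other's intervals. The 5p arm had 5 of 143, 4 of 164, 3 of 156 and 4 of 128 such reads, 2.71% over the 4 libraries (1.56 to 4.36). Over the 114 starts the median share was 2.51%, and 10 had a higher share than the 23.8% of miR-126-3p. Of these 10, 8 are 3p arms and 2 are 5p arms, from 41 and 67 arms named as such.

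The shifted forms of the 3p arm with at least 100 reads are shown because each presents a seed (capitals) other than the listed one.
miR-126-3p, start 1 nt later, 892 reads: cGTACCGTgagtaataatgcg
miR-126-3p, start 1 nt later, 252 reads: cGTACCGTgagtaataatgc
miR-126-3p, start 1 nt earlier, 401 reads: cTCGTACCgtgagtaataatgc
miR-126-3p, start 1 nt earlier, 112 reads: cTCGTACCgtgagtaataatgcg
No other rat mature miRNA in the table has the seed of the later start (0) or of the earlier start (0). Starts 1 nt later made up 15.0% of the reads in untreated cells (13.5 to 16.5), 16.6% after 1 h (14.9 to 18.5), 15.1% after 3 h (13.6 to 16.7) and 15.2% after 24 h (13.6 to 17.0). Starts 1 nt earlier made up 7.62% (6.52 to 8.84), 6.31% (5.22 to 7.56), 6.76% (5.73 to 7.90) and 7.49% (6.32 to 8.79). Starts 2 nt later were rare, with 34, 16, 39 and 14 reads, and no read began 2 nt earlier (0 of 7833). No share at any Ang II time was 1.5-fold away from the control for shifted starts of the 3p arm as a whole. Of the 114 starts, 10.5% were 1.5-fold higher in this share and 6.14% lower at 1 h, 7.02% higher and 14.9% lower at 3 h, and 5.26% higher and 23.7% lower at 24 h. No minimum of shifted reads was set for this count, so starts with few such reads were not left out.

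The 3′ end of the 3p arm went with its 5′ start. Among reads that start 1 nt early and end either at the listed base or 1 nt before it, 74.8% ended 1 nt before in untreated cells (113 of 151; 67.1 to 81.5), 79.0% after 1 h (79 of 100), 81.4% after 3 h (114 of 140) and 77.9% after 24 h (95 of 122). Among reads with the listed start the same share was 23.3% (346 of 1486; 21.2 to 25.5), 26.1%, 28.2% and 24.7%. For starts 1 nt late it was 21.5% (64 of 298; 17.0 to 26.6), 20.0%, 28.2% and 17.7%. For the rare starts 2 nt late it was 9 of 33, 2 of 16, 4 of 36 and 3 of 14 reads. In each of the 4 libraries the early starts ended early more often than on the listed base, the other starts did the reverse, and the intervals of early and listed starts did not overlap. The most read early form and the listed form are both 22 nt long, whereas the most read late form has 21 nt.

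**Figure D3:**
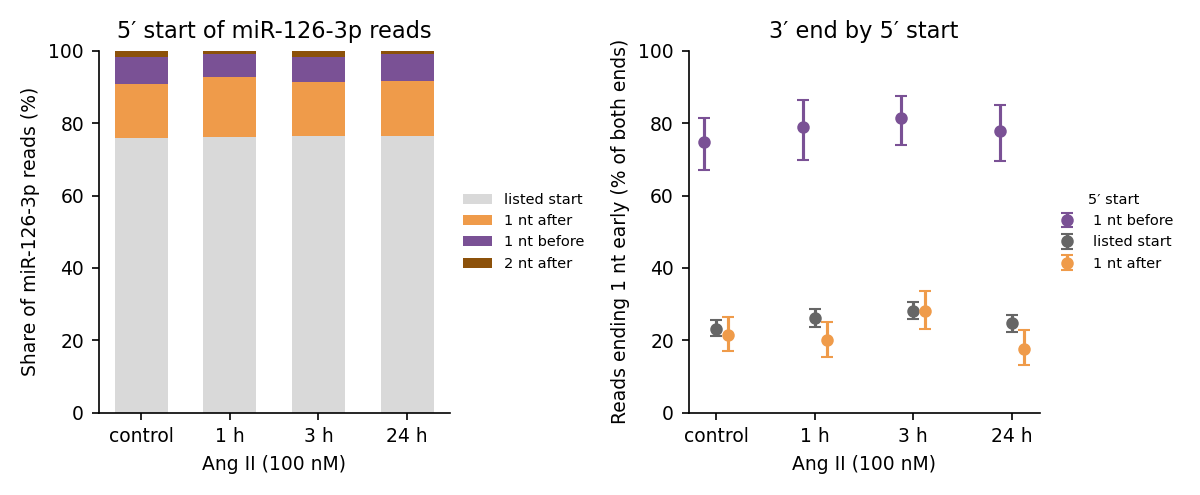
Left, share of miR-126-3p reads by 5′ start in each library, with reads that begin at the listed base, 1 nt after, 1 nt before and 2 nt after. Right, share of reads that end 1 nt before the listed 3′ end, among reads with that end or the listed end, for the start 1 nt before, the listed start and the start 1 nt after, with exact binomial 95% intervals; early starts lie between 74.8% and 81.4%, the listed and 1-nt-late starts between 17.7% and 28.2%.

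The 5p arm began almost always at the same base but changed its 3′ end between libraries. Its 5 most read forms, with the seed in capitals, are shown because the balance of the first and second carries that change.
miR-126-5p, 397 reads: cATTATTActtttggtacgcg
miR-126-5p, 129 reads: cATTATTActtttggtacgc
miR-126-5p, 16 reads: cATTATTActtttggtacgcgc
miR-126-5p, 7 reads: cATTATTActtttggtacg
miR-126-5p, 6 reads: cATTATTActtttggtacgcga
The listed 21-nt form had 102 reads in untreated cells, 114 after 1 h, 94 after 3 h and 87 after 24 h. The form 1 nt shorter had 18, 32, 46 and 33 reads. The shorter form was thus least read in the control and most read at 3 h, while the form 1 nt longer was most read in the control, on few reads (8, 3, 4 and 1).

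As a share of the 5p arm, the shorter form was 13.0% in untreated cells (7.92 to 19.8), 20.0% after 1 h (14.1 to 27.0), 30.1% after 3 h (22.9 to 38.0) and 26.6% after 24 h (19.1 to 35.3). The share was 1.53 times that of the control at 1 h, 2.31 times at 3 h and 2.04 times at 24 h, and its odds ratio was 1.67 (0.854 to 3.33), 2.87 (1.52 to 5.57) and 2.42 (1.23 to 4.85). The control and 3 h intervals do not overlap, those of the control and 24 h meet by less than 1 percentage point, and the 3 Ang II libraries overlap one another, so the comparison rests on 18 reads in the single control library. Among other miRNA starts with at least 1000 reads and at least 10 such reads in 1 library of the pair, 3.85% of 104 were 1.5-fold higher in this share at 1 h, 8.65% of 104 at 3 h and 9.52% of 105 at 24 h, while 9.62%, 4.81% and 2.86% were lower. The ratio of this share to the control was taken for each of these starts, and its median was 0.992, 1.01 and 1.08. MiR-126-5p, with 575 reads over the 4 libraries, is itself below that minimum of 1000. These starts are thus read more deeply than it is, and starts of like depth were not compared. In the 3p arm, whose 3′ end is made by the other enzyme, the same share was 21.7% in untreated cells (19.7 to 23.8), 24.4% after 1 h (22.1 to 26.8), 26.6% after 3 h (24.5 to 28.8) and 23.2% after 24 h (21.0 to 25.5). That is 1.12, 1.22 and 1.07 times the control, with 3 h again the highest and none past 1.5-fold. The odds ratios of the 3p arm were 1.16 (0.976 to 1.39), 1.31 (1.11 to 1.54) and 1.09 (0.913 to 1.30). The interval at 3 h leaves 1 out, so a higher share at 3 h was seen in both arms.

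**Figure D4:**
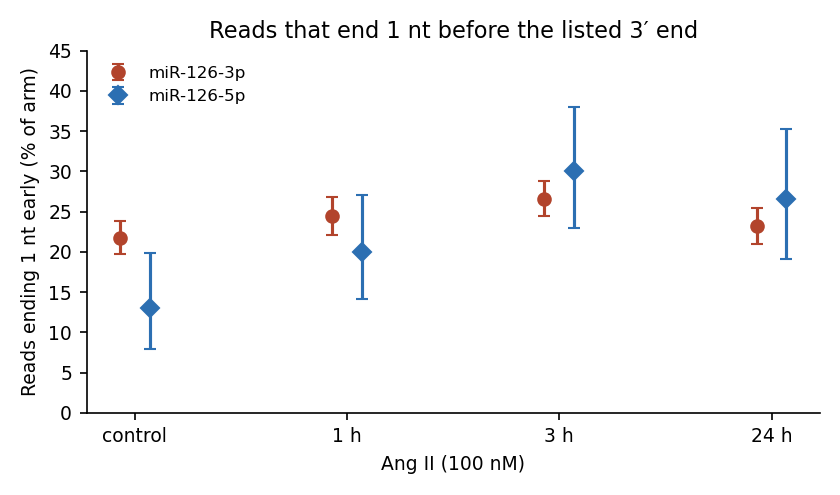
Share of the reads of each arm that end 1 nt before the listed 3′ end, in each library, with exact binomial 95% intervals (miR-126-3p red circles, miR-126-5p blue diamonds). The 5p share is between 20.0% and 30.1% with Ang II and 13.0% in the control, and the 3p share lies between 21.7% and 26.6%.

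A few long reads joined the 5p arm to the loop of the hairpin. They are shown because they span the junction that Dicer cuts, and the 5p arm is in capitals.
miR-126-5p with loop, 36 nt: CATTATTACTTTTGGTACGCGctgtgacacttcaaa
miR-126-5p with loop, 37 nt: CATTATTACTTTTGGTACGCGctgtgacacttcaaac
The 36-nt form had 0 reads in the Ang II libraries and 2 in the control, and the 37-nt form had 2 reads at 1 h and 0 elsewhere. The 37-nt form ends on the last base before the 3p arm. Another control read, with 1 changed base in the loop, ran 1 nt into the 3p arm. A further read of 40 nt, at 3 h, did not match the loop. All reads of 30 nt or more, that read included, made up 1.04% of the 5p arm (6 of 575; 0.384 to 2.26), and the 3p arm had 0 of that length.

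**Figure D5:**
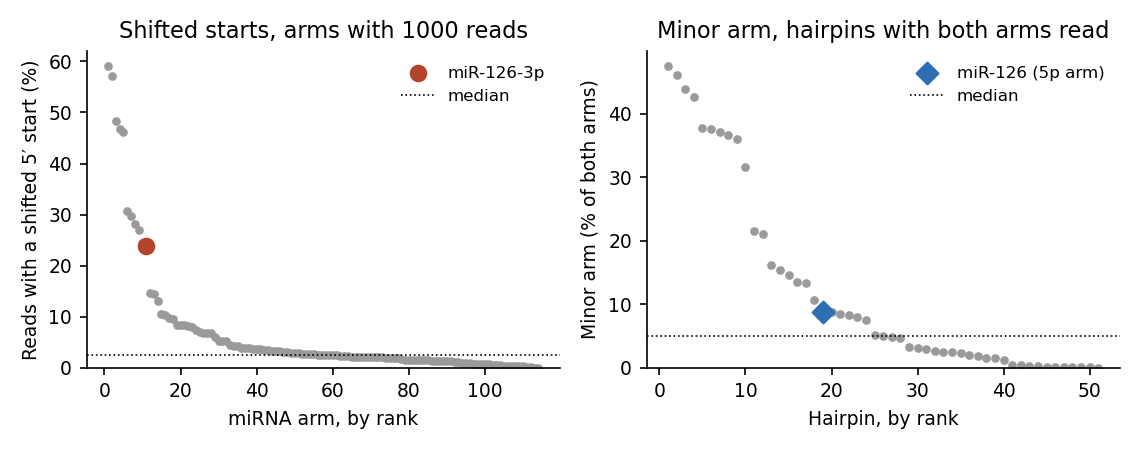
Left, share of reads with a shifted 5′ start for each of 114 miRNA starts with 1000 reads or more, ranked, with miR-126-3p (23.8%) in red and the median (2.51%) dotted. Right, share of the minor arm for each of 51 hairpins with 100 reads or more on both arms, ranked, with miR-126 (8.79%) in blue and the median (5.08%) dotted.

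The level of miR-126 was read beside markers of the labelled cells and of other cell types. Fewer cells of a type and less RNA per cell cannot be told apart in such bulk libraries. All 4 smooth muscle arms, of miR-143 and miR-145, were present, summing to between 305774 and 312678 RPM with Ang II and to 251047 RPM in the control. MiR-145-5p had 2275, 2421, 2216 and 2463 RPM in the control, 1 h, 3 h and 24 h libraries, miR-143-5p lay between 304 and 409 RPM, and miR-145-3p between 198 and 240.0 RPM. There were 2244 reads of miR-143-3p for each read of miR-126-3p in untreated cells, 2996 after 1 h, 2699 after 3 h and 3172 after 24 h. On that scale miR-126-3p was lower in every Ang II library. MiR-143-3p itself was higher there, at 302819, 309959 and 305533 RPM at 1 h, 3 h and 24 h against 248197 RPM in the control. In RPM, miR-126-3p at 3 h was above the control (115 against 111). MiR-145-3p was highest in the control, and ratios to it were not taken. The 2 miR-126 arms, which served as the endothelial list, summed to between 105 and 125 RPM, close to the sum of the striated muscle list (98.4 to 122 RPM). That sum was nearly all miR-1-3p (96.7 to 119 RPM), with miR-206-3p at 1.44 to 2.64 RPM. The third arm of the list, miR-133a-3p, counted together with miR-133b-3p, had only 3, 1, 11 and 3 reads in the control, 1 h, 3 h and 24 h libraries. For blood and platelets, 6 of 8 arms could be looked up, none had 100 reads, their sum was 0.695 to 1.32 RPM, and miR-144-3p, miR-142-5p and miR-223-3p had 0 reads, which allows up to 3 counts or 0.229 RPM in the shallowest library. MiR-451-5p, the red cell miRNA, had 3, 5, 2 and 6 reads. The epithelial list summed to 3.97 to 6.71 RPM over 4 of 7 arms (miR-200c-3p, 3.20 to 5.79 RPM), the neural list to 31.8 to 44.2 RPM over 2 of 3 (miR-9a-5p, 31.6 to 43.8 RPM), and the mesenchymal list to 2014 to 2372 RPM. In that list miR-199a-3p lay between 1198 and 1463 RPM, miR-199a-5p between 745 and 891 RPM, and miR-214-3p between 39.9 and 56.5 RPM. The part of any other cell type in the miR-126 level was not tested.

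The 5 miRNAs whose pattern over the 4 libraries was most like that of miR-126-3p were miR-98-5p, miR-128-3p, miR-27b-5p, miR-872-5p and let-7d-5p. Their root mean square differences from it were 0.035 to 0.043 on the log2 scale, against a median of 0.18 over 224 miRNA starts with at least 100 reads in all. MiR-27b-5p, for instance, had 136 RPM in untreated cells, 119.8 after 1 h, 132 after 3 h and 118 after 24 h. Those most like miR-126-5p were miR-184, miR-219a-1-3p, miR-125a-3p, miR-30a-5p and miR-26b-5p, at 0.050 to 0.067 against a median of 0.22. The partner arm was not among them: miR-126-5p came 113th in likeness to miR-126-3p, at a difference of 0.18, and miR-126-3p came 65th in likeness to miR-126-5p. MiR-126-5p had only 124 to 160 reads in a library, so its differences include counting error, and that part was not measured. MiR-219a-1-3p had fewer, with 23, 34, 30 and 22 reads in the control, 1 h, 3 h and 24 h libraries. These likeness values are descriptions over 4 libraries that share their depth with every other miRNA in them.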

How the data were processed

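Library inserts of 17 to 52 nt were selected after 12 cycles of PCR, starting from 0.5 ug of RNA, per the labels' protocols. The deposited files hold raw counts of reads for each distinct sequence, with no header and no normalization. Novoalign and rn4 are named in the submitters' processing notes with no role, and trimming and filtering are not given in the sources used here. The sequences are 16 to 42 nt long, and a row that names none (5.13% to 7.07% of a file's reads) was left out. Groups follow the source label, 1 library each. Ligases join some RNA ends better than others, so ratios between different sequences are ratios of reads, not of molecules. PCR copies are not independent, so intervals and floors cover counting error only.

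Mature sequences and hairpins came from RefSeq (GRCr8), 724 entries with 693 names and 682 distinct 18-nt starts, of which 403 had reads. Names that share a start were counted together. Both members matched an entry (rno-miR-126a-3p and rno-miR-126a-5p). MiRNA reads made up 68.4% to 74.4% of a library. Ends were set against the hairpin: a read was templated, carried a 3′ tail of up to 3 nt, or held 1 internal change. Intervals are exact (Poisson, Clopper-Pearson or conditional), at 95%. Calls needed 1.5-fold on RPM + 1 and 100 reads. The named items were both arms, their 5 most read forms, the 5 miRNAs closest in pattern to each and the marker lists; shifted and long forms were printed after their counts were seen. Members, lists and rules were chosen with earlier results of these data known. Alternatives were other scalings (TMM from edgeR 4.0.16 in R 4.3.3), pseudocounts, limits, read minimums, match lengths and read filters, and, chosen after seeing the data, reads with 1 mismatch in the first 18 nt. Matching, calling and end classes were tested on simulated data. Tables were made in Python 3.11.15 (pandas 2.3.3, numpy 2.4.6), intervals with scipy 1.17.1, figures with matplotlib 3.10.9.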

Additional observations from a re-analysis of the deposited data

Results flagged for a closer look

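RefSeq lists a second miRNA, miR-126b, on the opposite strand of the miR-126 hairpin. Its listed start had 0 reads in all 4 libraries, which allows up to 3 counts in each. Reads that match the opposite strand of the locus exactly numbered 2 in untreated cells, 0 after 1 h, 4 after 3 h and 0 after 24 h. They drew attention because the 4 reads at 3 h lie above the limit that a count of 0 allows. The control was not at 0, and 4 reads against 2 are too few to rank these libraries. The 4 reads at 3 h come from 2 forms, with 2 reads each, and both are shown.
opposite strand, facing the 5p arm: gcgtaccaaaagtaataatgtg
opposite strand, facing the 3p arm: cattattactcacggtacgagt
The first begins 3 nt before the listed miR-126b. The 2 forms shown start at bases 67 and 30 of the opposite-strand hairpin. The 2 control reads were 1 read each of 2 other forms, which start close by, at bases 66 and 31.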

How the results depend on the processing

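Neither miR-126 arm passed the fold limit at any time under any of the 15 alternatives. Some of these could not have added a call. The stricter fold limit and the lower read minimums left the ratios of both arms as they were, and the larger pseudocount only shrinks a ratio. The log2 ratio of miR-126-3p at 3 h moved to -0.066 when scaled to miRNA reads, and at 24 h to 0.061 with TMM factors and 0.046 with median-of-ratios factors, which shift all ratios at 24 h by 0.26 and 0.25. Adding reads with shifted starts lowered the 5p share to 6.38% in untreated cells, 8.60% after 1 h, 6.73% after 3 h and 6.54% after 24 h, since it adds mostly 3p reads. It also lowered the listed share of the 3p arm to 54.3%, 52.8%, 51.6% and 54.1% and raised the share ending 1 nt early to 25.3% in the control, 29.8% at 3 h and 25.7% at 24 h. Matching 16 nt gave 68.8% for the listed share of the 3p arm in the control, since it adds only reads other than the listed sequence. What those reads are was not tested. The shares with shifted starts, and those of the 5p arm's shorter form, stayed within their intervals under every alternative run.

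Counts of miRNA starts past the limit moved more, but some settings also changed how many starts were tested. The main setting tested 168 at 1 h, 170 at 3 h and 172 at 24 h. A minimum of 20 reads gave 240, 242 and 239, and no minimum gave 403 at each time. The listed sequence alone gave 125, 126 and 127. A higher or lower count under these settings is therefore not a higher or lower share. Higher at 1 h (main count 4) were 8 with 20 reads and 13 with no minimum. Lower at 1 h (4) were 9 scaled to miRNA reads, 1 with a pseudocount of 10 RPM, 0 at 2-fold and 2 for the listed sequence alone. Higher at 3 h (7) were 13 with 20 reads and 13 with no minimum. Lower at 3 h (7) were 14 scaled to miRNA reads, 11 without pseudocount, 4 with 10 RPM, 2 at 2-fold, 11 with 20 reads and 12 with no minimum. Higher at 24 h (9) were 14 with TMM and 3 at 2-fold. Lower at 24 h (29) were 9 with TMM, 11 with median-of-ratios factors, 13 with 10 RPM, 4 at 2-fold and 17 for the listed sequence alone, and also 43 scaled to miRNA reads, 38 with 20 reads and 39 with no minimum. Beyond what each alternative's construction shows, the cause was not tested. No paired analysis was possible because each group is 1 library and no test was made. The 124 to 160 reads of miR-126-5p limit its precision, with a ratio at 1 h known only to lie between 1.01 and 1.61 by counting error.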

Other observations

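Reads with 1 mismatch in the first 18 nt, which the matching leaves out, came to 547 for miR-126-3p and 67 for miR-126-5p over the 4 libraries, 9.17% and 11.7% of the exactly matched reads.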
